A study of Mus musculus with 12 samples.

Results

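The genes described here encode receptors and ligands that signal through STAT3, and all but Il21r are of the IL-6 and IL-10 cytokine families. They are the receptor genes Il6ra, Il6st, Il27ra, Il21r, Il10ra and Il10rb and the ligand genes Lif and Osm. They were taken by name, with earlier results of these data known. Their counts set against all tested genes are therefore a description, not a test of the set. Each gene was read from the probe set that the platform annotation pairs with that gene symbol alone. All 8 were found among the 22180 genes named on the arrays, each with 1 probe set, and all 8 passed the filter on dim signals that left 9862 genes for testing. The RNA came from CD8 T cells of mouse spleen, and 12 Affymetrix arrays were run, 3 for each of 4 groups. The groups were Tc17 STAT3-/-, Tc17 WT, Tc1 STAT3-/- and Tc1 WT. STAT3-/- cells carried Cd4cre and STAT3fl/fl, so that a recombinase driven from Cd4 had removed the floxed gene in the T cell lineage. This deletes in CD4 as well as CD8 T cells, and from the thymus onwards. WT cells had no stated alteration, and the age of the mice is not given in the sources used here.

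Naive CD8 T cells of both genotypes were combined at equal numbers and activated by antibodies to CD3 (1 µg/ml) and CD28 (3 µg/ml). For 3 days they received IL-6 and TGFb, which gives IL-17-producing Tc17 cells, or IL-12, which gives cytotoxic Tc1 cells. All groups then had 1 day with IL-2, and after 4 days in all the genotypes were sorted apart by allelic markers. STAT3-/- and WT cells of a culture therefore shared the same medium and any cytokine secreted into it. Each group had 2 biological arrays and 1 technical array numbered as replicate 2, which was averaged with biological array 2, so that n = 2 samples per group. The labels do not say that the replicates came from separate animals or cultures, so the p-values speak only to how far these samples varied, and that variation may be technical.

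IL-6 binds the receptor chain encoded by Il6ra, and the pair recruits gp130, the signalling chain encoded by Il6st, whose associated Janus kinases phosphorylate STAT3. Gp130 is shared: it pairs with the Il27ra product to receive IL-27, and with the receptor chains of leukemia inhibitory factor (Lif) and oncostatin M (Osm), which are secreted ligands of the same family. The IL-21 receptor and the IL-10 receptor use other partner chains but also activate STAT3, and in T cells IL-6, IL-21 and STAT3 are known for driving the type 17 program.

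Stat3 signal was 7.78 ± 0.03 in Tc17 STAT3-/- and 10.63 ± 0.13 in Tc17 WT, and 7.37 ± 0.42 in Tc1 STAT3-/- and 10.04 ± 0.14 in Tc1 WT (log2, mean ± SD, n = 2). The annotation does not place the probes against the deleted exons, so this is no check of the deletion by itself. The 7 markers of CD8 T cells named on the arrays were detected in every group. Of them only Cd8a and Cd8b1 mark CD8 cells, while Cd3d, Cd3e, Cd3g, Cd2 and Cd5 mark T cells at large. The 2 CD4 T cell markers also reached a mean of 5 in every group, Cd4 at 5.08 to 5.34 and Zbtb7b at 6.13 to 6.28. The Tc17 WT technical array stood apart from the rest, with a median correlation of 0.933 with the other arrays over tested genes, against 0.961 to 0.986 for the other 11 arrays. Results that rest on it are given with and without it.

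In Tc17 cells, loss of STAT3 went with less RNA of both ligands and of the IL-6 and IL-21 receptor chains, and with more RNA of the shared IL-10 receptor chain. Lif, Il6ra, Osm and Il21r fell, Il10rb rose, and Il6st, Il27ra and Il10ra were not called. A gene was called where limma's Benjamini-Hochberg adjusted p over all 9862 tested genes was under 0.05. By this rule 5 of the 8 genes were called, against 25.1% of all tested genes. The call was lower for 4 of them, against 6.83% of all tested genes, and higher for 1, against 18.2%. The 3 arrays of a group did not overlap those of the other for 7 of the 8, which was so for 44.3% of all tested genes. The median log2 change was -0.36 over the 8 genes and 0.11 over all tested genes. Less RNA per cell and fewer cells of a kind that expresses a gene cannot be told apart in bulk samples. With the technical arrays left out, all 8 genes were called, 3 higher and 5 lower. Of all 9862 tested genes 2588 were called in that setting, 1707 higher and 881 lower.

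**Figure D1:**
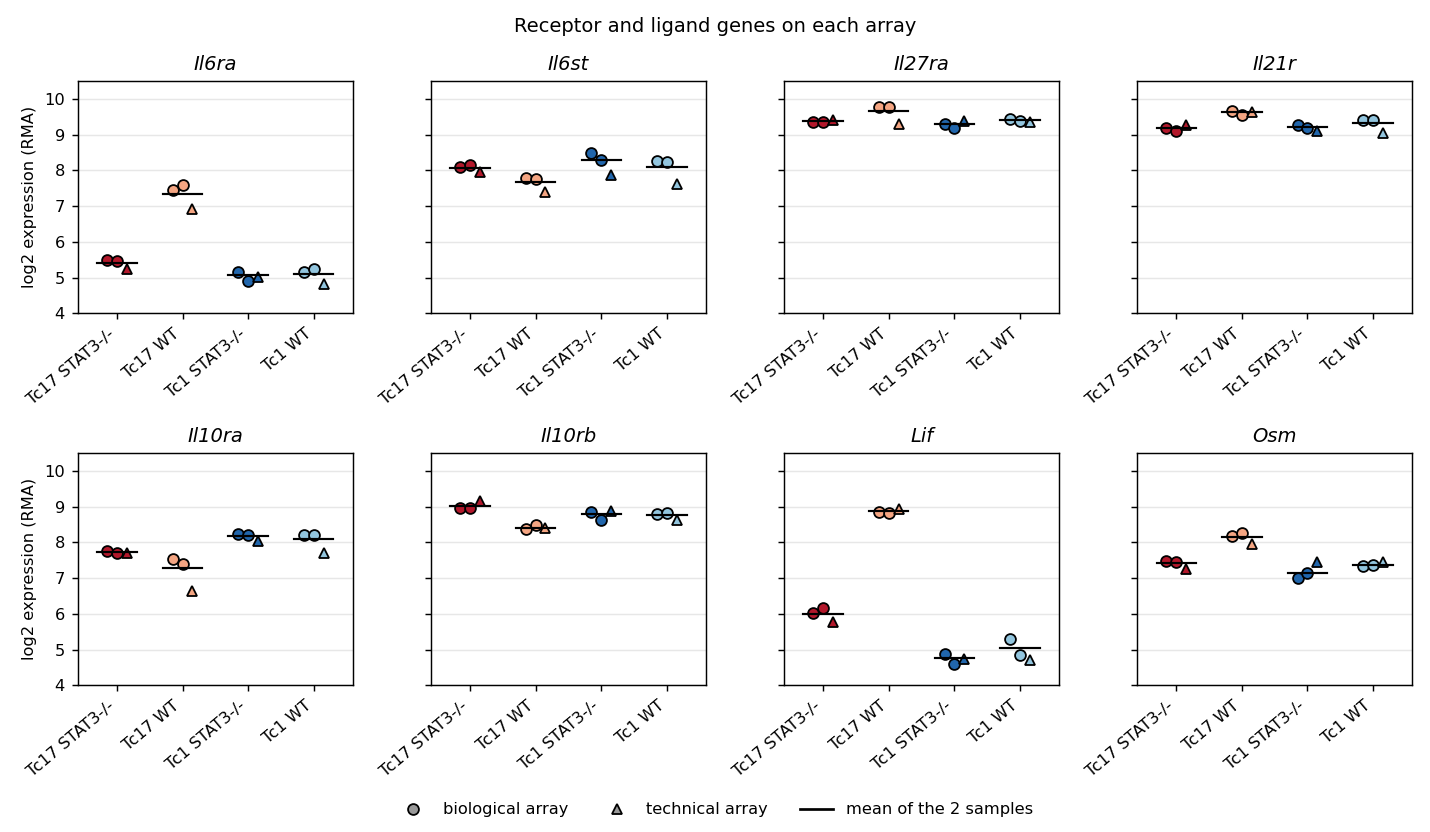
Log2 expression (RMA) of the 8 genes on every array, 1 panel per gene, with the 4 groups from left to right as Tc17 STAT3-/-, Tc17 WT, Tc1 STAT3-/- and Tc1 WT. Circles are biological arrays, triangles technical arrays, and the line is the mean of the 2 samples. Lif and Il6ra stand high in Tc17 WT alone, at 8.87 and 7.35, while the other genes span a narrower range.

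Lif, the gene of leukemia inhibitory factor, was at 6.03 and 6.18 on the biological arrays and 5.77 on the technical array of Tc17 STAT3-/- cells. It was at 8.86, 8.82 and 8.94 on the same arrays of Tc17 WT cells. Every STAT3-/- array lay more than 2 log2 units under every WT array, the widest separation of the 8 genes. The mean was 6.01 ± 0.04 in STAT3-/- and 8.87 ± 0.01 in WT cells (SD, n = 2 each), and Lif fell by 2.86 ± 0.16 (SE) on the log2 scale, or 7.28-fold (limma adjusted p = 8.95e-06).

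Osm, the gene of oncostatin M, was at 7.49, 7.45 and 7.27 on Tc17 STAT3-/- arrays and at 8.19, 8.27 and 7.96 on Tc17 WT arrays. Its groups also kept apart, though by much less than those of Lif. The means were 7.42 ± 0.09 in STAT3-/- and 8.15 ± 0.05 in WT cells, and Osm fell by 0.73 ± 0.11, or 1.66-fold (limma adjusted p = 0.00249). Lif and Osm lie next to each other on mouse chromosome 11, with 0 protein-coding genes between them in the RefSeq table.

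Il6ra, which encodes the chain that binds IL-6, was at 5.49, 5.47 and 5.25 on Tc17 STAT3-/- arrays and at 7.44, 7.59 and 6.92 on Tc17 WT arrays. The 3 STAT3-/- arrays were all below the 3 WT arrays. The means were 5.42 ± 0.09 in STAT3-/- and 7.35 ± 0.13 in WT cells. Il6ra fell by 1.93 ± 0.11, or 3.80-fold (limma adjusted p = 1.04e-05). RMA narrows differences near background, so the folds of Lif and Il6ra may be understated.

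The promoters of Lif and Il6ra are shown because these genes had the largest falls. They come from a table of RefSeq promoters on build GRCm38.p6, in which 4 of the 8 genes were found, and run from 250 bases before to 50 after the annotated start, 5′ to 3′ on the gene's strand. Lif lies on the plus strand at chr11:4257318-4257617 and Il6ra on the minus strand at chr3:89913147-89913446. Capitals mark a match to TGANTCA, the site of AP-1 factors.
Lif: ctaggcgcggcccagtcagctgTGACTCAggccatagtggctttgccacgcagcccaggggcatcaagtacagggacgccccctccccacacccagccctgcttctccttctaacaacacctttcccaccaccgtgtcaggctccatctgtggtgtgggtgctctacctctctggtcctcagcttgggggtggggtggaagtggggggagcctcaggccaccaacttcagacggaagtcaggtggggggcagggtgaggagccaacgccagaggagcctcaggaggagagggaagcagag
Il6ra: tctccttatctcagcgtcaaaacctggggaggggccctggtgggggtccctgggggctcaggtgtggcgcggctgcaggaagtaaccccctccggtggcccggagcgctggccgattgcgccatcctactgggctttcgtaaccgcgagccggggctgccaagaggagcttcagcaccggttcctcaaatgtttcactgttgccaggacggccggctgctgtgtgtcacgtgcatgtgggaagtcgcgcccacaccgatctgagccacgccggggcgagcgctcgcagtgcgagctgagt
The letters TTCNNNGAA, the core of the site that STAT dimers bind, which reads alike on both strands, were in neither window. They were also in neither of the other promoters held, those of Il6st and Il21r, and were in 8.30% of 32851 promoters of the same length. TGANTCA, which also reads alike on both strands, had 1 match in the Lif window, 228 bases before the start, in none of the other 3, and in 7.81% of all promoters. The G and C share was 63.7% for Lif and 66.0% for Il6ra, against a median of 52.7%, and the Il6ra window had 25 CG pairs and the Lif window 7, against a median of 7.

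Il6st, the gene of the shared chain gp130, was at 8.08, 8.16 and 7.96 on Tc17 STAT3-/- arrays and at 7.78, 7.75 and 7.39 on Tc17 WT arrays. All STAT3-/- arrays lay above all WT arrays, the opposite side from its partner Il6ra. The means were 8.07 ± 0.02 in STAT3-/- and 7.67 ± 0.14 in WT cells. The difference of 0.40 ± 0.16 did not pass the test (limma adjusted p = 0.0962). It passed with the technical arrays left out, at 0.36 (adjusted p = 0.0188).

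Il27ra, whose product joins gp130 to receive IL-27, was at 9.35, 9.36 and 9.42 on Tc17 STAT3-/- arrays and at 9.76, 9.78 and 9.28 on Tc17 WT arrays. The biological WT arrays were above every STAT3-/- array, and the technical WT array was below them all. The means were 9.37 ± 0.03 in STAT3-/- and 9.65 ± 0.16 in WT cells, a change of -0.28 ± 0.10 (limma adjusted p = 0.0695). Without the Tc17 WT technical array the change was -0.40 and was called (adjusted p = 0.00472). With that array kept it was also called after the median of tested genes was subtracted (-0.40, adjusted p = 0.0101), and in all under 8 of 24 alternatives.

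Il21r, which encodes the receptor of IL-21, was at 9.20, 9.10 and 9.27 on Tc17 STAT3-/- arrays and at 9.67, 9.54 and 9.64 on Tc17 WT arrays. The groups did not overlap, on either kind of array. The means were 9.19 ± 0.01 in STAT3-/- and 9.63 ± 0.06 in WT cells, and Il21r fell by 0.44 ± 0.10 (limma adjusted p = 0.0130). Leaving out Tc17 STAT3-/- replicate 1 ended the call (-0.45, adjusted p = 0.0802), as did leaving out replicate 2 of that group (-0.43, adjusted p = 0.0856).

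Il10ra, which encodes the chain specific for IL-10, was at 7.76, 7.71 and 7.70 on Tc17 STAT3-/- arrays and at 7.55, 7.39 and 6.64 on Tc17 WT arrays. The groups did not overlap, but the WT technical array was far under the WT biological arrays. The means were 7.73 ± 0.04 in STAT3-/- and 7.28 ± 0.38 in WT cells, and the difference of 0.45 ± 0.17 did not pass the test (limma adjusted p = 0.0795). It was 0.26 between biological arrays alone, where it was called (adjusted p = 0.0481), and 1.06 between technical arrays alone, which have no test. Leaving out 1 sample moved it between 0.18 and 0.72, the highest being without Tc17 WT replicate 1, where it was called (adjusted p = 0.00754).

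Il10rb, the chain that the IL-10 receptor shares with those of IL-22 and the lambda interferons, was at 8.98, 8.96 and 9.17 on Tc17 STAT3-/- arrays. On Tc17 WT arrays it was at 8.38, 8.49 and 8.40. The STAT3-/- arrays were all above the WT arrays, on both kinds of array. The means were 9.02 ± 0.06 in STAT3-/- and 8.41 ± 0.05 in WT cells, and Il10rb rose by 0.61 ± 0.09, or 1.52-fold (limma adjusted p = 0.00186). It was the only one of the 8 genes called higher.

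The median change of all tested genes in Tc17 was 0.114, and relative to it the changes were -2.98 for Lif, -2.04 for Il6ra, -0.84 for Osm, -0.56 for Il21r and 0.49 for Il10rb. Of all calls in this comparison 72.7% were higher as deposited (1799 higher, 674 lower). This was 49.4% (1085 and 1110) after each array's median of tested genes was subtracted, 60.2% (1327 and 876) with quantile-normalized arrays, 54.7% (1136 and 940) with cyclic loess and 82.4% (2266 and 485) with the median of all probe sets removed instead. Lif, Il6ra, Osm and Il21r were called lower and Il10rb higher under all 4 of these scalings.

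Markers of other cells differed between the genotypes in Tc17. The summed level of the 5 B cell markers on the arrays was 10.9 to 11.2 in STAT3-/- samples and 9.38 to 9.47 in WT samples (log2 of the sum). In Tc1 the B cell sum was 10.52 to 10.85 in STAT3-/- and 10.57 to 10.59 in WT samples. Tc17 WT was thus the lowest of the 4 groups, below both Tc1 groups, and Tc17 STAT3-/- was the highest. The B cell sum came from Ighm and Cd79b. The defining markers Cd79a, Ms4a1 and Pax5 reached at most 4.31 on any array, below the dim filter of 5. The sum of the 6 myeloid markers was 7.37 to 7.45 in STAT3-/- and 8.16 to 8.26 in WT samples. Cd68 alone was detected among them, and Lyz2, Csf1r, Itgam, Cd14 and Adgre1 reached at most 4.58. In Tc1 the myeloid sum was 8.03 to 8.21 in STAT3-/- and 7.97 to 8.24 in WT samples, so Tc17 STAT3-/- was the lowest of the 4 groups.

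**Figure D2:**
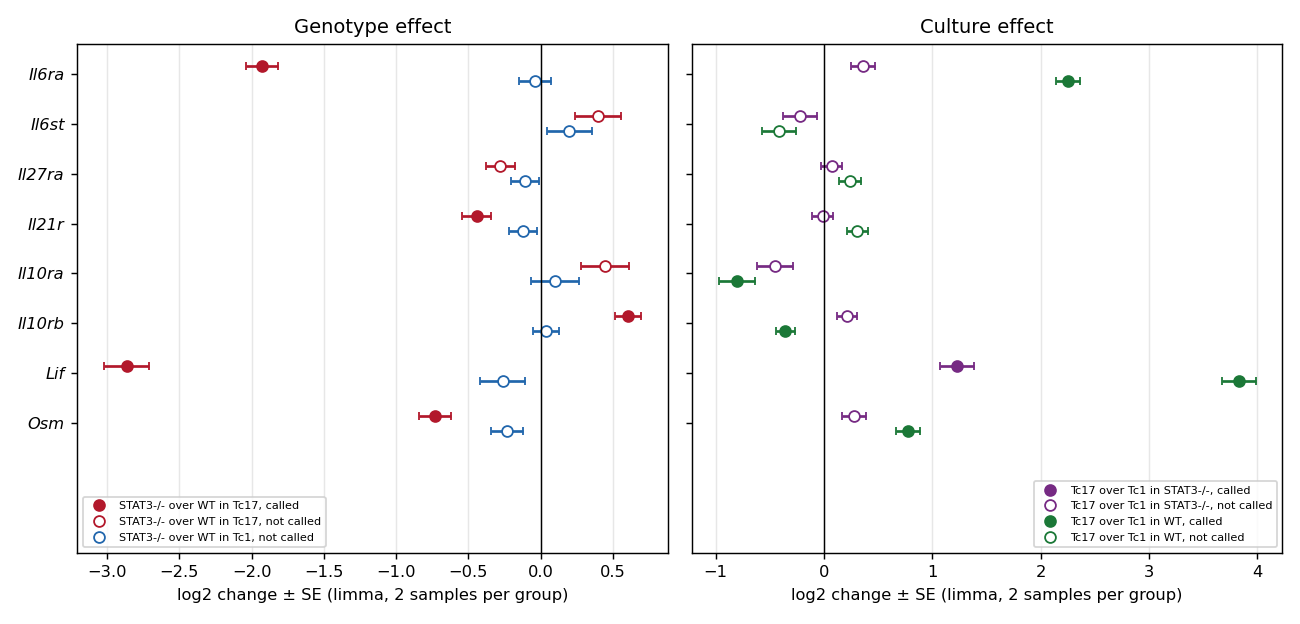
Log2 change ± SE (limma, 2 samples per group) of the 8 genes, with STAT3-/- over WT in Tc17 and in Tc1 on the left and Tc17 over Tc1 in STAT3-/- and in WT cells on the right. Filled points passed an adjusted p of 0.05 and open points did not. On the left, Lif at -2.86 and Il6ra at -1.93 lie far below 0 in Tc17, and all 8 points of Tc1 are open.

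In Tc1 cells none of these genes was called between the genotypes. Limma called 0 of the 8, with an adjusted p of 0.998 for each, and 0 had an unadjusted p under 0.05. Of all tested genes 0.0608% were called and 370 had an unadjusted p under 0.05. The arrays of the genotypes overlapped for all 8 genes, where 7.79% of all tested genes kept apart. The median change was -0.07 over the 8 genes and 0.01 over all tested genes.

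Lif was at 4.89, 4.59 and 4.75 on Tc1 STAT3-/- arrays and at 5.30, 4.85 and 4.72 on Tc1 WT arrays, with a change of -0.26 ± 0.16. Il6ra was at 5.16, 4.91 and 5.03 on Tc1 STAT3-/- arrays and at 5.16, 5.25 and 4.83 on Tc1 WT arrays, with a change of -0.04 ± 0.11. Both genes were near the dim filter of 5 in Tc1 cells of either genotype.

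Osm was well above the filter in Tc1, at 7.00, 7.15 and 7.44 on STAT3-/- arrays and 7.35, 7.36 and 7.45 on WT arrays. Its biological arrays were lower in STAT3-/- cells and its technical arrays were alike, at a change of -0.23 ± 0.11 overall. Il10rb was at 8.85, 8.64 and 8.89 on STAT3-/- arrays and at 8.81, 8.83 and 8.64 on WT arrays, a change of 0.04 ± 0.09. Its direction turned to -0.07 with the technical arrays left out.

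The other receptor genes differed by at most 0.20 in Tc1. Il6st was at 8.49, 8.29 and 7.88 on STAT3-/- arrays and at 8.26, 8.22 and 7.62 on WT arrays (0.20 ± 0.16). Il10ra was at 8.24, 8.21 and 8.05 on STAT3-/- arrays and at 8.22, 8.21 and 7.69 on WT arrays (0.10 ± 0.17). For both genes the technical array was the lowest of its group. Il27ra was at 9.30, 9.20 and 9.39 on STAT3-/- arrays and at 9.44, 9.39 and 9.36 on WT arrays (-0.11 ± 0.10). Il21r was at 9.26, 9.18 and 9.10 on STAT3-/- arrays and at 9.42, 9.42 and 9.03 on WT arrays (-0.12 ± 0.10). Their biological arrays were lower in STAT3-/- cells, and their technical arrays were not.

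Whether the genotype change in Tc17 differed from that in Tc1 was tested as an interaction, which was called for 3 of the 8 genes, against 6.85% of all tested genes. It was more negative in Tc17 for 2, Lif and Il6ra, against 2.37% of all tested genes, and more positive for 1, Il10rb, against 4.48%. In Tc1 both Lif and Il6ra were near the dim filter of 5, with WT means of 5.04 and 5.10, so a fall there could hardly show. Lif differed by -2.60 ± 0.22 (limma adjusted p = 0.000278), Il6ra by -1.89 ± 0.16 (0.000278) and Il10rb by 0.57 ± 0.13 (0.0310). The Il10rb call was lost under 9 of 23 alternatives, at adjusted p-values up to 0.152. Among them were leaving out either sample of Tc17 STAT3-/-, Tc1 STAT3-/- or Tc1 WT, and subtracting the median of tested genes (0.46, adjusted p = 0.0750).

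The other genes did not pass this test. Osm differed by -0.50 ± 0.16 (limma adjusted p = 0.102), and passed under 3 of 23 alternatives. These were the technical arrays left out (-0.48, adjusted p = 0.0330) or averaged with replicate 1 (-0.56, adjusted p = 0.0375), and the sample as a random block (-0.61, adjusted p = 0.00033). The within-sample correlation of the random block was -0.730, so it describes the arrays poorly. Il21r differed by -0.32 ± 0.14 (0.206). Il10ra differed by 0.35 ± 0.24 (0.396), Il27ra by -0.17 ± 0.14 (0.489) and Il6st by 0.20 ± 0.22 (0.614). The median of the interaction was -0.25 over the 8 genes and 0.12 over all tested genes. Over all genes its calls were 442 more positive and 234 more negative as deposited, 271 and 371 after the median of tested genes was subtracted, and 291 and 328 with cyclic loess.

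Between the culture conditions, WT cells had more RNA of both ligands and of the IL-6 receptor chain in Tc17 than in Tc1, and less of both IL-10 receptor chains. Of the 8 genes 5 were called, against 25.0% of all tested genes. The call was higher for 3, Lif, Il6ra and Osm, against 7.01% of all tested genes, and lower for 2, Il10ra and Il10rb, against 18.0%. Arrays did not overlap for 6 of the 8, which was so for 40.8% of all tested genes. These comparisons use the same WT samples as the genotype comparisons above and are not independent of them.

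Lif was 14.2-fold higher in Tc17 WT than in Tc1 WT cells (log2 change 3.83 ± 0.16, limma adjusted p = 1.56e-06). Il6ra was 4.76-fold higher (2.25 ± 0.11, adjusted p = 4.69e-06) and Osm 1.71-fold higher (0.78 ± 0.11, adjusted p = 0.00187). Il10ra changed by -0.80 ± 0.17 (adjusted p = 0.00905), a call lost without Tc1 WT replicate 1 (-0.67, adjusted p = 0.0686). Il10rb changed by -0.36 ± 0.09 (adjusted p = 0.0199). This call was lost under 7 of 24 alternatives, with adjusted p-values up to 0.131, among them leaving out either Tc1 WT sample and subtracting the median of tested genes (-0.24, adjusted p = 0.0932).

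The other 3 receptor genes were not called between Tc17 and Tc1 in WT cells. Il21r differed by 0.31 ± 0.10 (limma adjusted p = 0.0508), with no overlap of arrays, and was called under 9 of 24 alternatives, among them subtracting the median of tested genes (0.42, adjusted p = 0.00803). Il6st differed by -0.42 ± 0.16 (0.0839) and Il27ra by 0.24 ± 0.10 (0.104), and both were called with the technical arrays left out, at -0.48 (adjusted p = 0.00508) and 0.36 (adjusted p = 0.0106). The median change was 0.27 over the 8 genes and -0.10 over all tested genes. Of all calls 28% were higher as deposited (691 higher, 1777 lower) and 50.5% (1139 and 1115) after the median of tested genes was subtracted.

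In STAT3-/- cells 1 of the 8 genes was called between Tc17 and Tc1, Lif, against 2.07% of all tested genes called in either direction and 1.05% called higher. Lif was 2.34-fold higher in Tc17 STAT3-/- than in Tc1 STAT3-/- cells (1.22 ± 0.16, limma adjusted p = 0.00427), and all 24 alternatives called it, with a highest adjusted p of 0.0442. All Tc1 STAT3-/- arrays were under the dim filter for Lif, at 4.59 to 4.89, so this fold may be understated. Tc17 STAT3-/- cells had more Lif RNA than Tc1 STAT3-/- cells. Arrays did not overlap for 4 of the 8 genes, which was so for 16.4% of all tested genes. With the technical arrays left out 4 genes were called, where 398 of all 9862 tested genes were. The other 3 were Il6ra (0.45, limma adjusted p = 0.0448), Il10ra (-0.49, adjusted p = 0.0115) and Osm (0.40, adjusted p = 0.0332).

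Among the remaining genes Il6ra differed by 0.36 ± 0.11 (limma adjusted p = 0.209), Il10ra by -0.45 ± 0.17 (0.326), Osm by 0.28 ± 0.11 (0.400) and Il10rb by 0.21 ± 0.09 (0.411). Il6st differed by -0.22 ± 0.16 (0.722), Il27ra by 0.07 ± 0.10 (0.876) and Il21r by -0.01 ± 0.10 (0.979). The median change was 0.14 over the 8 genes and 0.00 over all tested genes.

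Ordered by level, Lif, Il6ra and Osm were highest in Tc17 WT, then Tc17 STAT3-/-, Tc1 WT and Tc1 STAT3-/-. For Lif the steps between neighbours were 2.86, 0.96 and 0.26 against a pooled SD of 0.20. For Il6ra they were 1.93, 0.32 and 0.04 against 0.11, and for Osm 0.73, 0.05 and 0.23 against 0.12, so Tc17 STAT3-/- and Tc1 WT did not differ beyond the spread for Osm.

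Il6st and Il10ra ran the other way, from Tc1 STAT3-/- through Tc1 WT and Tc17 STAT3-/- to Tc17 WT. The steps were 0.20, 0.02 and 0.40 for Il6st against a pooled SD of 0.20, and 0.10, 0.36 and 0.45 for Il10ra against 0.22. Il10rb was highest in Tc17 STAT3-/- and lowest in Tc17 WT, with both Tc1 groups between them, at steps of 0.21, 0.04 and 0.36 against 0.055. Il27ra and Il21r were highest in Tc17 WT, followed by Tc1 WT, with steps between these groups of 0.24 for Il27ra and 0.31 for Il21r against pooled SDs of 0.084 and 0.087, and further steps of 0.12 or less.

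The 8 samples fall into 4 groups, the genotypes shared cultures, and all genes were read on the same arrays. Across these samples Pearson's r between Il6ra and Lif was 0.988, and that of Osm was 0.946 with each of them. It was 0.912 between Il27ra and Il21r and 0.883 between Il6st and Il10ra, and the lowest was -0.893 between Il6st and Osm. Of all tested genes, those most like Lif were Slc15a1 (0.998), Dpy19l3 (0.993) and Mir483 (0.992). Those most like Il6ra were Cyp11a1 (0.999), Cysltr1 (0.998) and Dusp3 (0.997), and those most like Osm were Edem2 (0.991), Samd4b (0.991) and Pgs1 (0.988).

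For the other receptors the most alike were Arhgap18 (0.993), Lims1 (0.991) and Rfx3 (0.989) for Il6st, and Pdlim1 (0.975), Ggt7 (0.974) and Cd82 (0.971) for Il27ra. They were Klhl6 (0.985), Cysltr2 (0.980) and Igf1r (0.978) for Il21r, Ptbp3 (0.994), Vps37b (0.989) and Septin2 (0.987) for Il10ra, and Zer1 (0.996), Tgs1 (0.987) and Ergic1 (0.983) for Il10rb. Among these genes some had a lowest group mean below the dim filter and passed it only through brighter groups. They were Cyp11a1 (3.35), Dusp3 (4.03) and Cysltr1 (4.08) for Il6ra, Slc15a1 (4.35) for Lif and Cysltr2 (4.65) for Il21r. With so few samples and 9862 genes such values of r are a description only.

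The other receptor chains of both families that were read here stayed below the dim filter on every array. Lifr, Osmr, Cntfr and Il31ra, receptor chains for Lif, Osm and related ligands, were at most 4.50, and Il11ra1 and Il2rg were not analysed here. Il20ra, Il20rb, Il22ra1, Il22ra2 and Ifnlr1, the other chains of the IL-10 family, were at most 3.73. The ligands Il6, at 2.21 to 2.81, and Il10, at 3.75 to 5.13 with every group mean under 5, were also too dim to be tested.

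**Figure D3:**
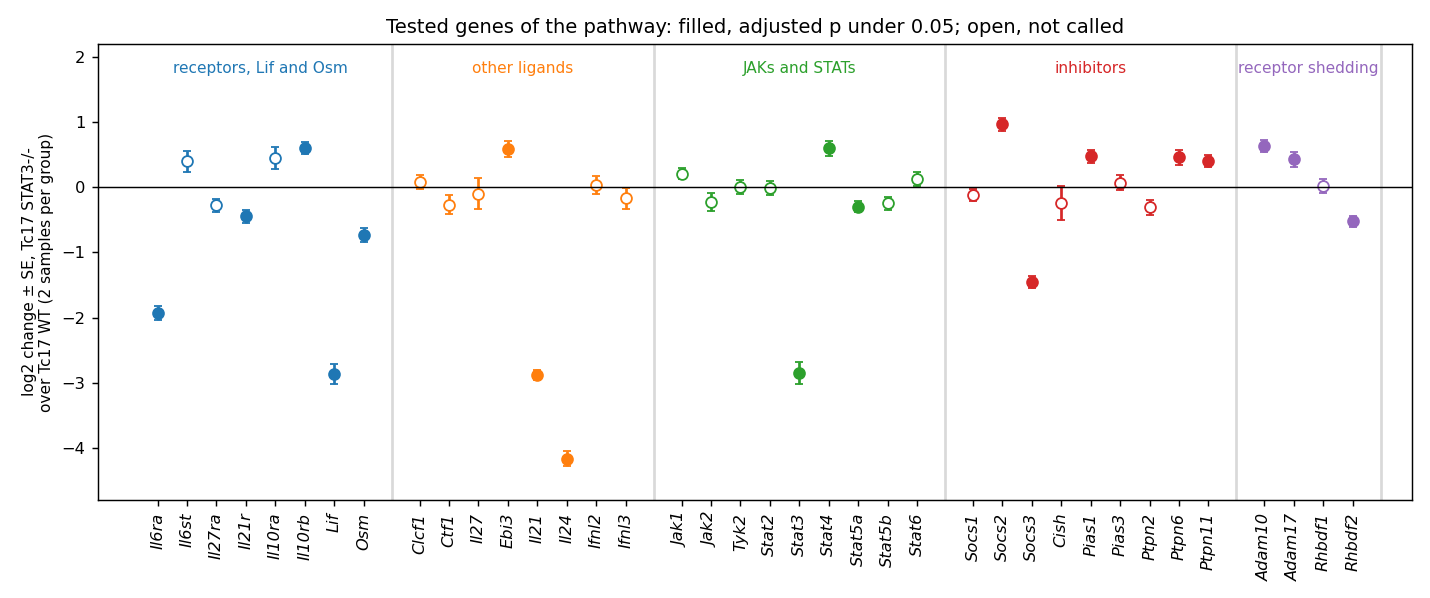
Log2 change ± SE, Tc17 STAT3-/- over Tc17 WT (limma, 2 samples per group), of the tested genes of the pathway, grouped by role. Filled points passed an adjusted p of 0.05 and open points did not. Il24 at -4.17 lies lowest, and the inhibitors hold both Socs3 at -1.46 and Socs2 at 0.97.

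Of 8 tested ligands outside Lif and Osm, 1 was higher and 2 lower in Tc17 STAT3-/- than in Tc17 WT cells, with a median change of -0.13 against 0.11 for all tested genes. Of all tested genes 18.2% were higher and 6.83% lower in this comparison, and the counts of the lists below stand against the same shares. Il24, an IL-10 family cytokine, averaged 4.97 ± 0.20 in STAT3-/- and 9.13 ± 0.07 in WT cells, and fell by 4.17 ± 0.11 (limma adjusted p = 4.6e-07). Il21, the ligand of the Il21r product, averaged 3.72 in STAT3-/- and 6.60 in WT cells and fell by 2.88 ± 0.08 (4.6e-07). Both passed the dim filter through Tc17 WT alone, which fixes the direction. Ebi3, a subunit of IL-27, rose by 0.59 ± 0.12 (0.00837), with 7.78 ± 0.14 in STAT3-/- and 7.19 ± 0.11 in WT cells. The Ebi3 change was 0.22 and not called with the mean of its probe sets (adjusted p = 0.145), and its call also ended without replicate 2 of Tc17 STAT3-/- (0.49, adjusted p = 0.0784).

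Of 9 tested Janus kinases and STATs, 1 was higher and 2 lower in Tc17 STAT3-/- cells, with a median change of -0.01. Of all tested genes 25.1% were called in this comparison. Stat3 fell by 2.85 ± 0.18 (limma adjusted p = 1.4e-05), Stat4, which the IL-12 receptor uses, rose by 0.60 ± 0.11 (0.00611), and Stat5a fell by 0.30 ± 0.09 (0.0409). The Stat5a call was lost under 13 of 24 alternatives, with adjusted p-values up to 0.186, and that of Stat4 without replicate 2 of Tc17 STAT3-/- (adjusted p = 0.0559). Jak1, Jak2 and Tyk2, the kinases bound by gp130, were at 0.21, -0.22 and 0.00 and were not called.

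Of 9 tested inhibitors of the pathway 4 were higher and 1 lower in Tc17 STAT3-/- cells, with a median change of 0.07, where calls in this comparison lean higher over all genes. Socs3, which binds gp130 and curbs IL-6 signalling, averaged 6.01 ± 0.03 in STAT3-/- and 7.46 ± 0.13 in WT cells and fell by 1.46 ± 0.10 (limma adjusted p = 1.96e-05). Socs2, a related inhibitor, averaged 8.66 ± 0.06 in STAT3-/- and 7.69 ± 0.09 in WT cells and rose by 0.97 ± 0.09 (0.000213). Pias1, an inhibitor of STAT proteins, rose by 0.48 ± 0.10 (0.00837), and the phosphatase genes Ptpn11 and Ptpn6 rose by 0.40 ± 0.09 (0.0151) and 0.46 ± 0.12 (0.0241). Calls were lost under 1 of 24 alternatives for Pias1, 3 for Ptpn11 and 5 for Ptpn6. For each gene they included leaving out replicate 2 of Tc17 STAT3-/-, with changes of 0.39, 0.39 and 0.38. For Ptpn6 they also included the fit with no dim filter (0.46, limma adjusted p = 0.0549).

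Of 4 genes for shedding of receptors such as that of IL-6 from the cell surface, 2 were higher and 1 lower in Tc17 STAT3-/- cells, with a median change of 0.23, against 18.2% higher and 6.83% lower of all tested genes. The proteases Adam10 and Adam17 rose by 0.63 ± 0.09 (limma adjusted p = 0.00161) and 0.43 ± 0.12 (0.0282), and Rhbdf2, which brings the Adam17 protease to maturity, fell by 0.52 ± 0.09 (0.0034). Adam17 was not called under 7 of 24 alternatives (adjusted p up to 0.140), among them leaving out the Tc17 WT technical array (0.24, adjusted p = 0.103) and leaving out either Tc17 STAT3-/- sample.

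Between Tc17 and Tc1 in WT cells 8 genes of these lists were higher and 6 lower, where 7.01% of all tested genes were higher and 18.0% lower. The lists held 8 tested ligands, 9 kinases and STATs, 9 inhibitors and 4 shedding genes. Il24 and Il21 passed the dim filter through Tc17 WT alone, which fixes their direction here too. Il24 (4.86 ± 0.11), Il21 (2.97 ± 0.08), Ebi3 (0.56 ± 0.12), Socs3 (1.19 ± 0.10), Socs1 (0.44 ± 0.09), Stat5a (0.59 ± 0.09), Stat5b (0.41 ± 0.09) and Stat3 (0.59 ± 0.18) were higher in Tc17 WT than in Tc1 WT cells. Socs2 (-0.59 ± 0.09), Stat4 (-0.70 ± 0.11), Pias1 (-0.41 ± 0.10), Ptpn11 (-0.36 ± 0.09), Adam10 (-0.47 ± 0.09) and Adam17 (-0.52 ± 0.12) were lower. Of 24 alternatives 8 ended the call of Stat3 (adjusted p up to 0.165), 7 that of Ptpn11 and 5 that of Pias1. Between 1 and 2 ended those of Adam17, Stat5b, Adam10, Socs1 and Ebi3, each by leaving out 1 sample. Ebi3 was higher in both comparisons. The Tc17 WT samples stand in both, so the signs are not independent. In Tc1 the genotypes differed in Stat3 alone among these genes, which fell by 2.66 ± 0.18 (limma adjusted p = 0.00029). In STAT3-/- cells Ebi3 (0.84 ± 0.12, adjusted p = 0.00697) and Il24 (0.76 ± 0.11, adjusted p = 0.00914) were higher in Tc17 than in Tc1. Il24 averaged 4.97 in Tc17 STAT3-/- and 4.21 in Tc1 STAT3-/- cells, both under the dim filter, and was tested only because Tc17 WT passed it. Leaving out Tc17 STAT3-/- replicate 2 ended both calls (adjusted p = 0.0962 and 0.105).

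**Figure D4:**
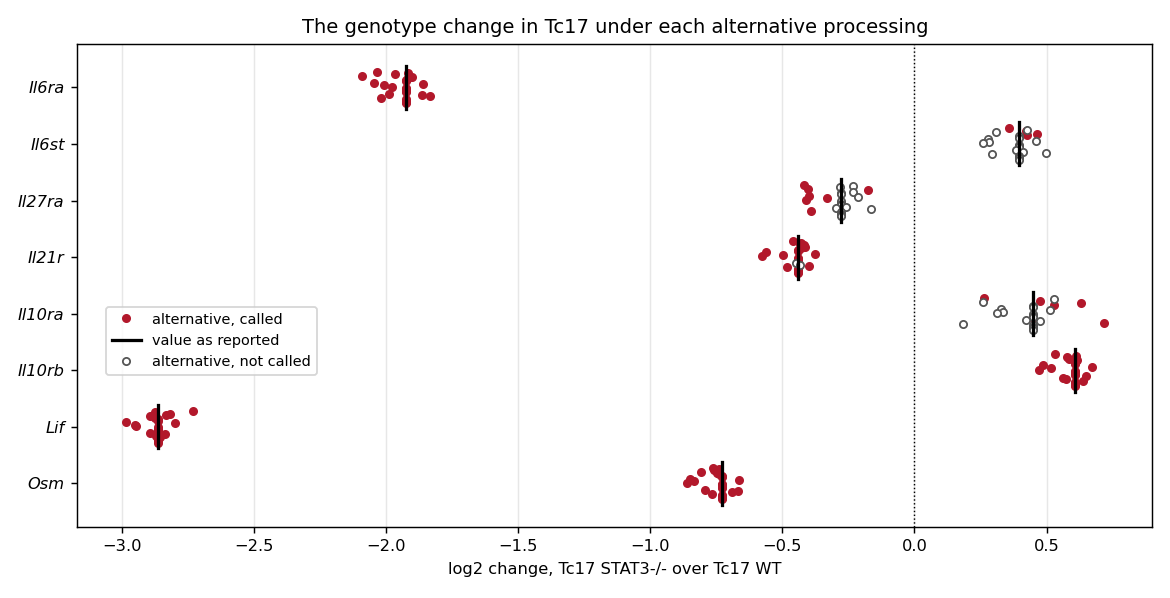
Log2 change of the 8 genes, Tc17 STAT3-/- over Tc17 WT, under each of 24 alternative treatments of the data. Filled points were called, open points were not, and the bar is the value as reported. Lif, Il6ra, Osm and Il10rb were called under all 24. Il6st, Il27ra and Il10ra were called under some settings only and kept their direction under all.

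Across the 24 alternatives the Tc17 change ran from -2.98 to -2.73 for Lif, from -2.09 to -1.83 for Il6ra, from -0.86 to -0.67 for Osm and from 0.47 to 0.67 for Il10rb, each called every time. Il21r ran from -0.58 to -0.38 and was called 22 times. Il27ra was called 8 times, Il10ra 6 times and Il6st 5 times, each in the direction given above. Lif, Il6ra and Osm were lower and Il10rb was higher in Tc17 STAT3-/- than in Tc17 WT cells on the technical arrays as on the biological arrays, with changes of -3.16, -1.67, -0.69 and 0.77 on the technical arrays and -2.73, -2.04, -0.76 and 0.53 on the biological arrays.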

How the data were processed

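Each probe set has 1 deposited value per array, in log2 units. RMA, a method of background correction, quantile normalization and probe summary, and Partek were the authors' tools, as the submitters' processing notes list them. Neither their versions nor the array's annotation build is given in the sources used here. Of 41345 probe sets, 23521 carried exactly 1 gene symbol, and a gene with several was read from its brightest on average, giving 22180 genes. Entrez identifiers of 21994 of these genes, and of all 8 described, were found in the gene list of RefSeq for GRCm38.p6, used only for names and gene order. Promoter sequences are from RefSeq on the same build.

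The test took in genes with a mean of 5 or more in at least 1 group. Each technical array was averaged with the biological array of its group that has the same number, 2. The labels do not say which sample it repeats. Over tested genes, differences between a group's biological arrays had an SD of 0.144 to 0.192, and those of the technical array from biological array 2 an SD of 0.209 to 0.352. The fit of group means over the 8 samples used R 4.3.3 and limma 3.58.1 (functions lmFit, contrasts.fit and eBayes), with 4 residual and 4.87 prior degrees of freedom, for 5 contrasts. Tests were 2-sided, and the number of arrays limits their precision. The code was tested on simulated data. The R package data.table (1.17.8) and, in Python 3.11.15, pandas 2.3.3 and matplotlib 3.10.9 handled tables and figures.

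The genes described and the lists of pathway genes and markers were chosen with earlier results of these data known. Named were all 8 genes, Stat3, the pathway genes called in a genotype or culture contrast, and the 3 genes most like each of the 8 by Pearson's r. Further genes, such as untested ones, were named after their values were seen. The alternatives treated the technical arrays, dim filter, scaling, probe sets, variance model, samples in the fit and replicate number differently, or left out 1 sample. The block for array kind was chosen after seeing the data.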

Additional observations from a re-analysis of the deposited data

Results flagged for a closer look

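The effect of STAT3 loss differed between Tc17 and Tc1 by the interaction test (limma, n = 2 samples per group) for 3 of the 8 receptor and ligand genes. It also differed for 4 other genes of the pathway, 2 of 8 tested ligands and 2 of 9 inhibitors. None of 9 kinases and STATs and none of 4 shedding genes was called, and 6.85% of all tested genes were. The change in Tc17 minus that in Tc1 was -2.60 for Lif (adjusted p = 0.000278), -1.89 for Il6ra (0.000278) and 0.57 for Il10rb (0.0310). It was -4.10 for Il24 (8.58e-06), -2.92 for Il21 (8.58e-06), -1.17 for Socs3 (0.00165) and 0.99 for Socs2 (0.00373). Il24 and Il21 were below the dim filter in all groups but Tc17 WT. Lif and Il6ra were near it in both Tc1 groups, so a fall without STAT3 could hardly show in Tc1. All but Il10rb were called in each of 23 alternatives.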

How the results depend on the processing

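Of 952 values of the 8 genes under the alternatives, 868 kept their direction and their side of the threshold, 19 lost a call, 52 gained one and 13 turned sign, of which 0 were called. In Tc17 the number of the 8 genes called for genotype was 8 instead of 5 with the technical arrays left out and 8 with the sample as a random block over 12 arrays, and 4 to 6 when 1 sample was left out. With the random block it was 6 instead of 3 for the interaction, 8 instead of 5 for Tc17 over Tc1 in WT and 4 instead of 1 for Tc17 over Tc1 in STAT3-/-. The within-sample correlation of that block was -0.730. Arrays taken as 1 sample were thus less alike than arrays of different samples in a group, so this block describes the arrays poorly. Without the technical arrays Tc17 over Tc1 in STAT3-/- also gave 4. With 1 sample left out Tc17 over Tc1 in WT gave 3 to 6, with 3 without Tc1 WT replicate 1.

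All tested genes called for genotype in Tc17 numbered 2473, against 6274 with the random block and 943 to 3191 with 1 sample left out. In Tc1 they numbered 6, against 17 without the technical arrays, 13 with each technical array as its own sample, 16 with it averaged with replicate 1, 14 without that of Tc17 WT, 266 with the random block, 20 with array kind as a block and 15 with the replicate block. For the interaction they were 676, against 1246 without the technical arrays, 4796 with the random block, 384 with no dim filter, 1018 with the replicate block and 244 to 1555 with 1 sample left out. For Tc17 over Tc1 in WT they were 2468, against 6101 with the random block, 1479 with only the groups compared and 1100 to 3232 with 1 sample left out. In STAT3-/- they were 204, against 398 without the technical arrays, 1592 with the random block and 65 to 247 with 1 sample left out. The cause of these differences was not tested.

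Uncalled changes that turned sign were those of Il10rb in Tc1 (-0.07 without the technical arrays, -0.020 with them averaged with replicate 1, -0.0058 to 0.080 with 1 sample left out) and Il21r between Tc17 and Tc1 in STAT3-/- (0.0061 with each technical array as its own sample and with array kind as a block, 0.029 with the random block, -0.071 to 0.048 with 1 sample left out). With 1 sample left out Tc1 changes ran from -0.0061 to 0.40 for Il6st, -0.13 to 0.058 for Il6ra and -0.037 to 0.23 for Il10ra, and the Il6st interaction from -0.0069 to 0.40.

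The labels give the groups the same replicate numbers, but do not say that a number marks a shared culture, and 2 numbers are too few to settle from the data whether they pair the samples. Deviations of same-numbered samples correlated at 0.099 between genotypes in Tc17, 0.455 in Tc1, 0.143 between Tc17 and Tc1 in WT and 0.160 in STAT3-/-. With the replicate block 7 of the 8 genes were called for genotype in Tc17, where 3056 of all 9862 tested genes were. Il6st (0.40, limma adjusted p = 0.0240) and Il10ra (0.45, adjusted p = 0.0233) were added. Between Tc17 and Tc1 in WT this block called 7 of the 8 genes and 3039 of all tested genes. Il6st (-0.42, adjusted p = 0.0199) and Il21r (0.31, adjusted p = 0.0283) were added there. The interaction needs all 4 groups, so it has no value from fewer.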

Other observations

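Among the 10 tested genes nearest to each of these genes in RefSeq order, a few stood out after their values were seen. Beside Lif and Osm on chromosome 11, Castor1, which encodes an arginine sensor of the mTORC1 pathway, fell by 1.22 in Tc17 STAT3-/- cells (limma adjusted p = 0.000165), and of the 10 neighbours of Lif only Castor1 and Osm were called, where 25.1% of all tested genes were called in this comparison. Beside Il10rb on chromosome 16, Ifngr2, which encodes a chain of the interferon-gamma receptor, fell by 1.21 ± 0.10 (adjusted p = 9.83e-05) while Il10rb rose. Of its 10 neighbours 4 were called, all lower, against 6.83% of all tested genes called lower. Of 10 neighbours each, 4 were called beside Il21r, 3 beside Il6st, 3 beside Il10ra, 2 beside Il27ra and 1 beside Il6ra. The interferon receptor genes Ifnar1 (0.33, adjusted p = 0.0521) and Ifnar2 (0.30, adjusted p = 0.0568), which flank Il10rb, were not called. Il4ra, which encodes the IL-4 receptor chain and lies next to Il21r on chromosome 7, fell by 0.55 ± 0.12 (adjusted p = 0.0101).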
